A study of Mus musculus with 8 samples.

Results

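The heat shock proteins and J-domain chaperones measured here are the genes whose symbols name them as such (Hspa to Hspe and Hsph families, Hsp90, Dnaja, Dnajb and Dnajc) together with the regulators Hsf1 and Hsf2 and the co-chaperones Bag3, Stip1, Chordc1 and Ahsa1. Of 48321 symbols in the count tables, 92 matched these names and 72 of them had at least 10 reads summed over the 8 libraries, the limit for being a member. The other 20 symbols were left out, and 13 of these had no read in any library. Of the 72 members, 67 had enough reads for edgeR's low-count filter, and these were tested among 12595 genes. The 5 members that did not pass were Hspa1b, Hspa12b, Hspb1, Hspb8 and the pseudogene Hspd1-ps4.

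The libraries came from NK cells sorted as CD45+ TCRb- NK1.1+ from lung and spleen of C57/Bl6 mice. Wild-type mice (Wt) were compared with mice homozygous for a germline deletion of the proximal enhancer of Ccl5 (Ccl5ΔPE/ΔPE, labelled KO), with 2 libraries for each of the 4 groups of organ and genotype. The deletion was made in the mouse line, so every cell of a KO animal carries it, the cells around the NK cells included. Each mouse line was bred and housed on its own, so litter and cage cannot be told apart from genotype. The study used young and adult mice of both sexes, and the age and sex behind each library, and whether replicate libraries were made from different animals, are not given. The comparisons ask which transcripts of NK cells differ in the absence of the enhancer, in each organ.

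Chaperones of the HSP70 family bind unfolded stretches of protein and release them in a cycle driven by ATP. J-domain proteins deliver clients and switch on the ATPase of HSP70, nucleotide exchange factors such as HSP110 and the BAG proteins reset it, and HSP90 takes over clients such as kinases and steroid receptors through adaptors like Stip1. Mitochondria and the endoplasmic reticulum (ER) hold their own sets. In the heat shock response the transcription factor HSF1 binds inverted repeats of the unit GAA, the heat shock element, and raises the inducible members, while unfolded protein in the ER raises its residents through the ER stress element. In cytotoxic lymphocytes, which make and store large amounts of secreted protein, ER chaperones are abundant.

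To show what could carry such regulation, RefSeq promoter windows (build GRCm38.p6) were read for the members; 56 of the 72 had one, and the 250 bases before the start were searched. The heat shock element was searched as 2 facing units, GAANNTTC or TTCNNGAA, on both strands, and as 3 units in the same register. The ER stress element was searched as CCAAT followed after 9 bases by CCACG, on both strands, and it contains the CCAAT box. A 2-unit heat shock element was present in 13 of the 56 members (23.2%) against 14.5% of all 27025 genes with a window, where a gene counts if any of its windows holds the element, and a 3-unit element in 3 members (5.36%) against 0.514% of all genes. The ER stress element was present in 3 members (5.36%) against 0.13% of all genes. The CCAAT box on either strand was found in 39.3% of the members and 37.5% of all genes, and TATAAA on the plus strand in 7.14% and 8.94%. A match of letters is a description and shows no binding. The following stretches, each within the 250 bases before a start, show the heat shock or ER stress elements of these members, with the matched element in capitals and positions relative to the start:
Hspe1 (chr1:55088053-55088082, plus strand, -95 to -66): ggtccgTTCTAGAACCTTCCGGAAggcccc
Hspd1 (chr1:55088053-55088082, minus strand, -150 to -121): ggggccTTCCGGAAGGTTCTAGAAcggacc
Dnajb6 (chr5:29735844-29735872, plus strand, -54 to -26): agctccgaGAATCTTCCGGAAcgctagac
Hsph1 (chr5:149636351-149636380, minus strand, -44 to -15): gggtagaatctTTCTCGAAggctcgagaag
Dnaja1 (chr4:40722333-40722362, plus strand, -135 to -106): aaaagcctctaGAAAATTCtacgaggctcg
Dnaja4, first element (chr9:54699458-54699487, plus strand, -101 to -72): ggaacctccgcGAACGTTCtgggcctatgt
Dnaja4, second element (chr9:54699496-54699525, plus strand, -63 to -34): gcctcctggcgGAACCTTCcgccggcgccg
Dnajb4 (chr3:152193846-152193870, minus strand, -25 to -1): ttcgttcgctgTTCTAGAAagtaca
Hspb6 (chr7:30553170-30553199, plus strand, -131 to -102): aagtaattattGAAGTTTCtaaataaggaa
Hspb1, first element (chr5:135887791-135887820, plus strand, -128 to -99): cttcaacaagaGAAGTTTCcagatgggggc
Hspb1, second element (chr5:135887811-135887840, plus strand, -108 to -79): agatgggggcaGAACCTTCctggccccgcc
Dnajc10 (chr2:80315273-80315302, plus strand, -193 to -164): aacaattttatTTCTAGAAaactttaatta
Dnajc27 (chr12:4082350-4082379, plus strand, -224 to -195): cacccatcggtGAAGATTCcaggaaaaaaa
Hspa5 (chr2:34772020-34772048, plus strand, -70 to -42): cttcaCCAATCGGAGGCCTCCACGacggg
Hsp90b1, first element (chr10:86705633-86705661, minus strand, -217 to -189): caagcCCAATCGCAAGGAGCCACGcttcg
Hsp90b1, second element (chr10:86705528-86705556, minus strand, -112 to -84): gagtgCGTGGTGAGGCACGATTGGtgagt
Dnajc3 (chr14:118937822-118937850, plus strand, -110 to -82): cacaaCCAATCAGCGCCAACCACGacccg

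Hspd1 and Hspe1, which encode the 2 parts of the mitochondrial chaperonin, face away from each other on chromosome 1, and their 3-unit matches are 1 element read from opposite strands. The third member with 3 units was Dnajb6. The heat-inducible HSP70 gene Hspa1a, which had the largest difference between genotypes of all members, is printed with its whole window because its neighbour Hspa1b differs from it at only 3 of the 250 bases, with 247 identical:
Hspa1a (chr17:34972157-34972406, minus strand, -250 to -1): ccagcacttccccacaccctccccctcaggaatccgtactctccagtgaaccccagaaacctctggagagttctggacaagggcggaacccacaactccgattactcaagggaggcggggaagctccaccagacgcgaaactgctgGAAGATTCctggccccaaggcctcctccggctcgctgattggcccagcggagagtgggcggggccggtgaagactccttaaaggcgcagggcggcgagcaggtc

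Between 3132963 and 26482366 reads were counted per library, so a floor of 3 reads corresponded to 0.115 to 0.978 CPM (a gene's reads relative to its library's TMM-scaled read total), and libraries of fewer reads give less certain values for rare transcripts. Ccl5 itself was at 15634 to 19482 CPM in the Wt libraries and at 2428 to 3188 CPM in the KO libraries. Summed NK cell markers were unevenly spread, from 20187 to 25530 CPM. Wt lung (25365 and 25129) and KO spleen (25530 and 24971) held more of them. KO lung (21008 and 21366) and Wt spleen (20320 and 20187) held less. Of these markers, Ncr1, Klrb1c, Klrk1 and Nkg7 were lower in KO for lung and higher for spleen. Prf1 and Tbx21 went the other way, and Eomes and Itga2 passed the test only in spleen, where KO was higher. The part of these shifts in the chaperone values was not tested. Summed B cell markers were at 5.43 to 10.1 CPM in lung and 40.7 to 46.2 in spleen, and T cell markers at 38.8 to 47.1 and 131 to 156. Platelet and erythroid markers summed to 43.3 to 52.0 CPM in lung and 1.25 to 2.87 in spleen. Within that sum the platelet genes Pf4 and Ppbp were lower in lung KO (-3.35 and -1.90 on the log2 scale) and the globins Hbb-bs and Hba-a1 higher (1.082 and 0.75), and their part in the chaperone values was not tested. Myeloid markers summed to 142 to 169 CPM in every library, and Adgre1, S100a8, S100a9, Mpo and Gp9 had no read. Most of that sum was Itgax, at 125 to 153 CPM. Lyz2 was uneven, at 12.2 and 15.8 CPM in Wt lung, 23.5 and 25.1 in KO lung and 1.63 to 4.09 in spleen. It was higher in lung KO (0.87 on the log2 scale), while Itgax and Csf1r were not called between genotypes in either organ. The part of Lyz2-expressing cells in the chaperone values was not tested. Within a group, replicates scattered scarcely beyond counting noise, with a chi-square per degree of freedom of 1.23 to 1.48 and a common biological coefficient of variation of 2.50%. Most of all genes therefore passed an adjusted p under 0.05 in each comparison, and the p-values measure only the spread between these libraries, which may be technical. For this reason the counts are given beside the percent of all genes called, and calls are also given with an assumed coefficient of variation of 0.2 for every gene. The libraries also differed in how a gene's level went with the GC content of its exons. Relative to the mean of the 8 libraries, log2 levels changed by -0.15 and -0.13 per 10 points of GC in Wt lung, 0.14 and 0.18 in KO lung, 0.15 and 0.09 in Wt spleen, and -0.13 and -0.14 in KO spleen. Lung Wt and spleen KO therefore shared 1 direction of this trend and lung KO and spleen Wt the other, and values from a fit with an offset that removes it are given beside the results that it moves.

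The chaperones took 1.05% to 1.21% of all counted reads of a library, and 23 of the 72 members averaged above 100 CPM while 21 averaged under 10. Per kilobase of exon, the scale on which genes can be ranked, the highest members in all 4 groups were Hspa5 (BiP, the HSP70 of the ER), Hsp90ab1 (the constitutive cytosolic HSP90) and Hsp90b1 (GRP94, the HSP90 of the ER). Hspa5 was at 467, 529.8, 419 and 389 CPM per kb in lung Wt, lung KO, spleen Wt and spleen KO (means of 2 libraries), and Hsp90ab1 was at 488, 378, 322 and 393 CPM per kb in the same order. Hsp90ab1 stood above Hspa5 in lung Wt, the reverse held in lung KO and spleen Wt, and in spleen KO the means were nearly equal. Next came the spliceosome-associated J-domain gene Dnajc8 and the constitutive HSP70 gene Hspa8. By contrast, the classical heat-inducible genes Hspa1a, Hspa1b and Hspb1 had no read in any of the 4 spleen libraries.

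Summed over their members, the families differed in how their level moved between groups. The HSP70 family was at 3518 and 3643 CPM in Wt lung, 4232 and 4122 in KO lung, 3399.9 and 3408 in Wt spleen, and 3366 and 3443 in KO spleen. The sum was thus highest in lung KO, with the other groups between 3366 and 3643. The 3 HSP90 genes were at 2990.2 and 3031 CPM in Wt lung, 2576 and 2616 in KO lung, 2149.8 and 2187 in Wt spleen, and 2552 and 2535 in KO spleen, highest in lung Wt and lowest in spleen Wt, with the KO groups in between. J-domain class A was at 391 and 379 CPM in Wt lung, 528 and 517 in KO lung, 412 and 431 in Wt spleen, and 439.6 and 465 in KO spleen, and the mitochondrial chaperonin was at 214 and 212 CPM in Wt lung, 276 and 263 in KO lung, 204 and 215 in Wt spleen, and 253 and 244 in KO spleen. Both were highest in lung KO. The sums of class B and class C ranged between 794 and 920.0 CPM and between 2395 and 2646 CPM.

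**Figure D1:**
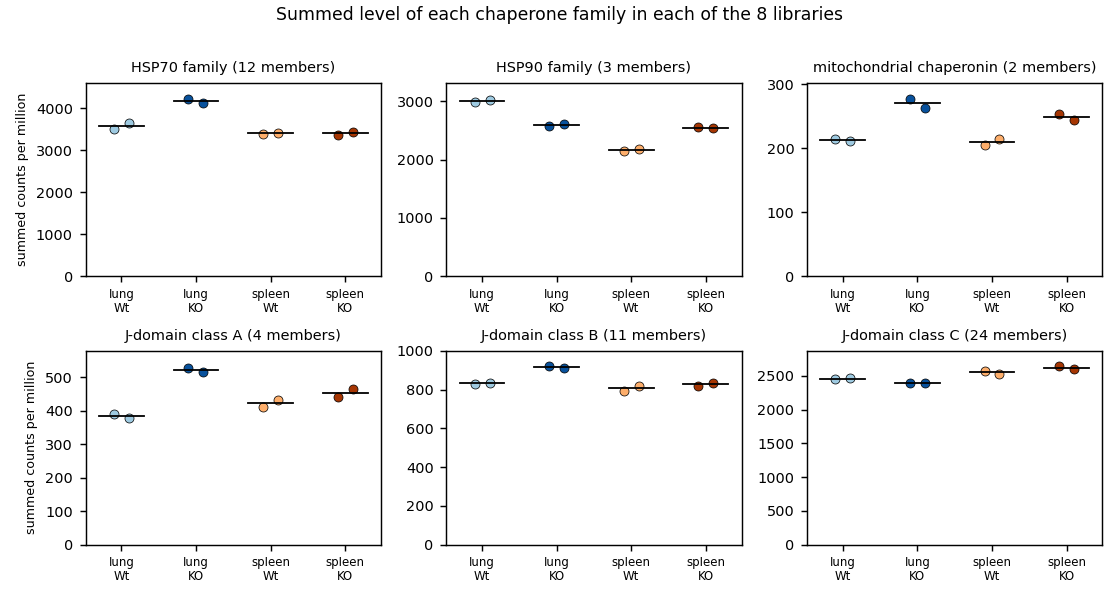
Summed level in CPM of 6 chaperone families (vertical axes, from 0) in lung Wt, lung KO, spleen Wt and spleen KO, with 1 point per library and a bar at the mean of 2. The HSP70 family and J-domain class A are highest in lung KO, and the HSP90 family is highest in lung Wt and lowest in spleen Wt.

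In lung, KO libraries held more transcript of most HSP70 genes and of their J-domain partners of class A, and less of Hsp90ab1. Hspa1a, Bag3 and Hsf1, a chaperone, a co-chaperone and the regulator of the heat shock response, had the largest increases, and the J-domain gene Dnajc28 the largest decrease. Of 67 members tested, 24 were higher (35.8%) and 14 lower (20.9%) in KO, against 29.2% higher and 26.4% lower over all genes tested, and the median log2 fold change was 0.02, as over all genes. At least 2-fold, 3 members were higher (Hspa1a, Bag3 and Hsf1) and 2 lower (Dnajc28 and Dnajb7), against 8.88% and 4.68% of all genes. In the HSP70 family 6 of 10 tested were higher and 1 lower, all 4 class A J-domain genes were higher, and so were both parts of the mitochondrial chaperonin and 4 of 5 co-chaperones. Hspa1a, which reached the low-count filter through lung KO alone, is in the counts of all higher members and of the HSP70 family. In class B 1 of 11 was higher and 4 lower, and in class C 4 of 24 were higher and 6 lower. Of the 24 and 14 calls, 18 and 5 were kept under every one of 10 other ways of scaling, filtering, testing or correcting for GC that still tested the gene. Rare members were not tested under the minimum of 10 counts per library, and this did not count as a loss. With the assumed coefficient of variation of 0.2, 4 were higher (Hspa1a, Bag3, Hsf1 and Hspbp1) and 1 lower (Dnajc28), with 12.4% of all genes called. Scaling by library totals in place of TMM moved the median of all genes to 0.11 and the calls to 28 higher and 8 lower. The directions given here for the HSP70 and HSP90 genes, class A and the co-chaperones stayed under that scaling, though Hsp90b1 then missed the test.

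**Figure D2:**
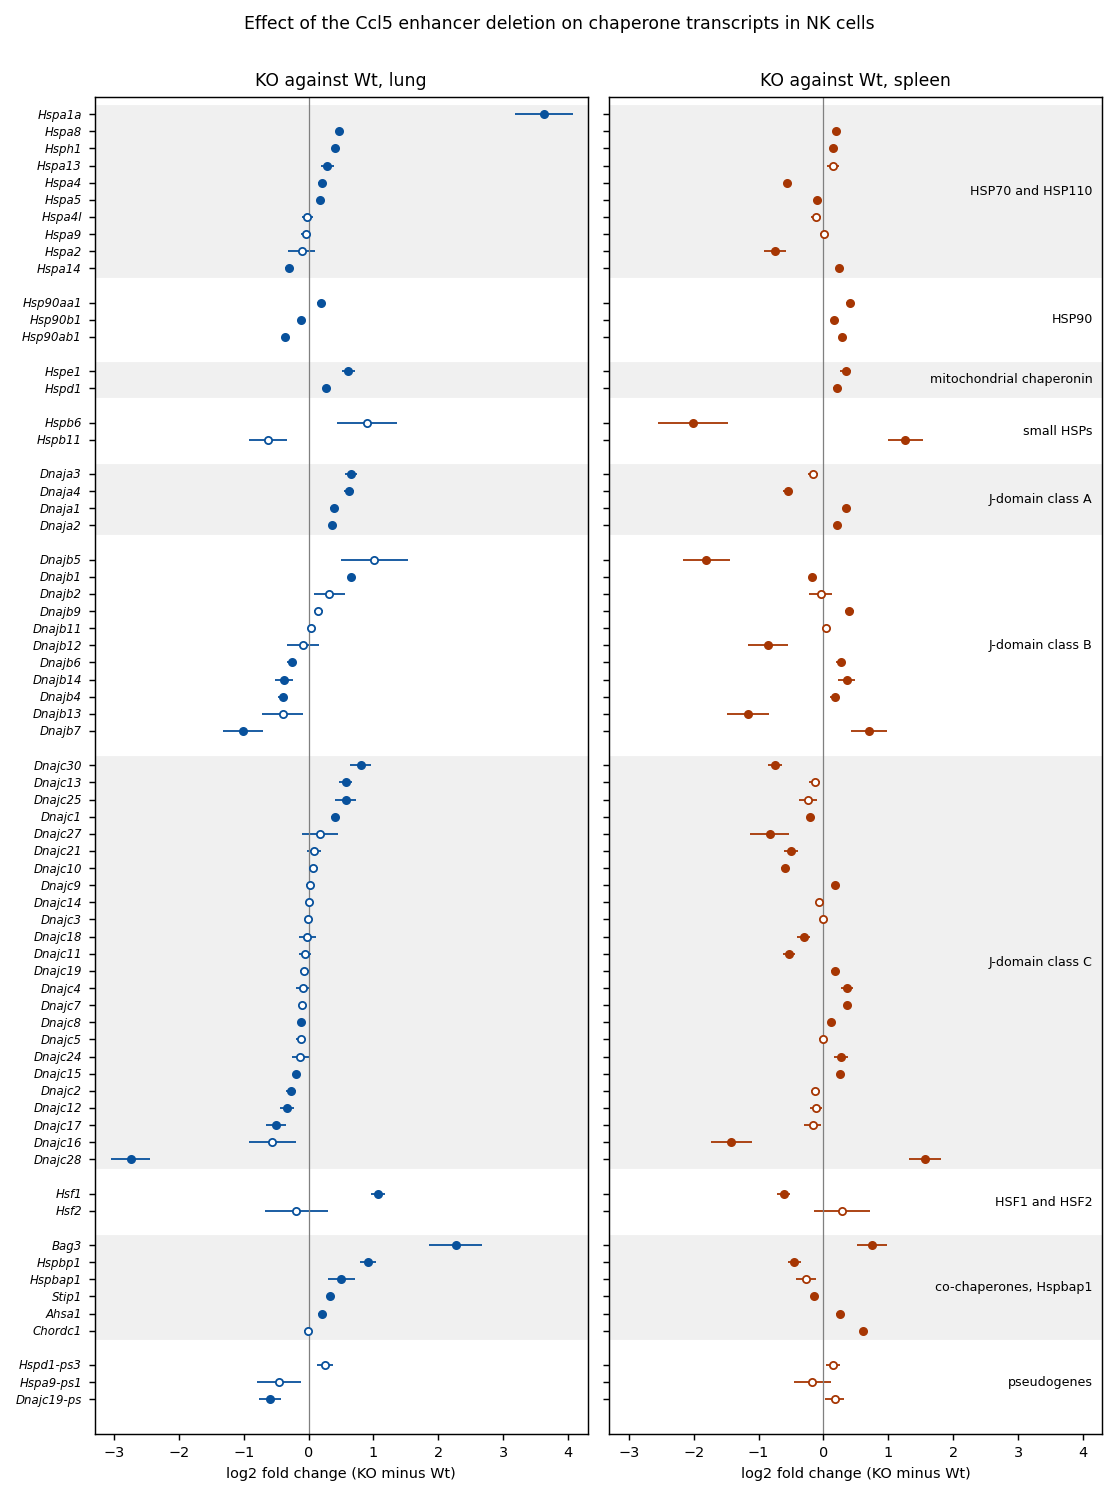
Log2 fold change of KO against Wt (horizontal axes) for the 67 tested members in lung (left) and spleen (right), ordered within each family by the lung value, with bars of 1 standard error. Filled points passed an adjusted p under 0.05, and Hspa1a has no point in spleen since it had no read there. The HSP70 genes, class A and the co-chaperones lie mostly to the right in lung, and Dnajc28 and Hspb11 lie to the left in lung and to the right in spleen.

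Hspa1a, the inducible cytosolic HSP70, had 3 reads in each lung Wt library and 25 and 54 reads in the lung KO libraries. The groups did not overlap, and both Wt libraries were at the floor. The ratio of the read rates, 79 reads against 6, was 12.8 (exact 95% interval 5.63 to 35.9, for counting error only), and the fitted log2 fold change was 3.63 ± 0.446 (SE). Hspa1a reached the low-count filter through lung KO alone, the group where it was high, so its value and its place among the members called are a description. By at least 1 library, the other 66 tested members reached that limit in more than 1 group. With both libraries, Hspb6 reached it in lung KO alone, Dnajb5 in lung KO and spleen Wt, and Hsf2 in no group. Hspb6 and Dnajb5 were high in those groups, so their values are a description too. Of the 50-base windows of the Hspa1a transcripts, 66.3% also occur in transcripts of other genes, 58.8% in those of Hspa1b. Reads may therefore have been lost or split between the pair. Hspa1b had 4 reads in lung Wt and 9 in lung KO. In spleen neither gene had a read, which puts Hspa1a at least 62.8-fold higher in lung KO than in spleen KO, with a floor of 3 reads over the group. The small heat shock genes Hspb1 (HSP27), with 5 and 9 reads in lung Wt and KO, and Hspb8, with 11 and 9, also had 0 reads in spleen. Hspa12b had 6, 14, 1 and 6 reads in lung Wt, lung KO, spleen Wt and spleen KO, and Hspd1-ps4, a pseudogene, had 22 reads in lung Wt, 0 in lung KO and 1 in either spleen group. Summed markers of lung epithelium, endothelium and stroma, each of the 8 with reads in some library, were at 256 to 262 CPM in lung Wt, 335 to 372 in lung KO and 0 to 0.65 in spleen. Of these, Sftpc of alveolar epithelium was higher in lung KO (0.80 on the log2 scale) and Scgb1a1 of airway epithelium lower (-0.46), and without Sftpc the other 7 summed to 110.2 and 100.3 CPM in lung Wt and to 83.9 and 91.0 in lung KO. The part of these cells in the differences was not tested. In bulk RNA, fewer cells of a type and less RNA per cell cannot be told apart.

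Bag3, the nucleotide exchange factor that links HSP70 to selective autophagy, was at 1.37 and 0.517 CPM in Wt lung, 4.08 and 6.11 in KO lung, 4.74 and 4.66 in Wt spleen, and 11.4 and 7.26 in KO spleen. It was lowest in lung Wt and highest in spleen KO, and the genotypes did not overlap in either organ. In lung Wt it had 11 and 2 reads, the second under the floor of 3 reads. Its log2 fold change in lung was 2.27 ± 0.402 (SE, adjusted p = 1.01e-05). Hsf1, the master regulator of the heat shock response, was at 22.2 and 24.6 CPM in Wt lung, 49.4 and 47.4 in KO lung, 28.4 and 35.6 in Wt spleen, and 22.5 and 21.4 in KO spleen. Lung KO stood apart from the other 3 groups, and the log2 fold change in lung was 1.07 ± 0.109 (SE, adjusted p = 1.83e-10). Hspbp1, an exchange factor that inhibits HSP70, was at 18.9 and 19.1 CPM in Wt lung, 36.8 and 35.0 in KO lung, 27.7 and 29.6 in Wt spleen, and 24.1 and 20.8 in KO spleen. In lung the log2 fold change was 0.92 ± 0.116 (SE, adjusted p = 2.35e-08), and lung KO was again the highest group. These genes are GC-rich, with 58.9% GC in the exons of Hspa1a, 56.1% in Bag3, 53.4% in Hsf1 and 59.9% in Hspbp1, against 47.4% on average for the tested members and 49.0% for all genes tested. With the GC offset their log2 fold changes in lung were 3.24, 1.95, 0.83 and 0.49, and the calls of Bag3, Hsf1 and Hspbp1 passed the test. Hsf2, the second heat shock factor, was at 1.61 and 1.81 CPM in Wt lung, 1.23 and 1.63 in KO lung, 1.75 and 1.05 in Wt spleen, and 3.26 and 1.34 in KO spleen, and it was not called in either organ.

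Among the abundant cytosolic members, Hspa8 (HSC70) was at 777 and 830.0 CPM in Wt lung, 1123 and 1096 in KO lung, 953 and 943 in Wt spleen, and 1079 and 1087 in KO spleen. It was lowest in lung Wt, with a log2 fold change in lung of 0.47 ± 0.0377 (SE, adjusted p = 4.03e-13). Other transcripts, mostly of the pseudogene Gm15459, hold 52.7% of its 50-base windows. Its exchange factor Hsph1 (HSP110) was at 161 and 171 CPM in Wt lung, 214 and 222 in KO lung, 143 and 149.6 in Wt spleen, and 164 and 164 in KO spleen. Lung KO was the highest group, and the log2 fold change in lung was 0.41 ± 0.0522 (SE, adjusted p = 2.51e-08). Dnajb1 (HSP40), the J-domain partner of the inducible HSP70, was at 186 and 194 CPM in Wt lung, 300.0 and 295 in KO lung, 282 and 281 in Wt spleen, and 251 and 247 in KO spleen. Its lung Wt libraries were the lowest of the 8, and the log2 fold change in lung was 0.65 ± 0.0477 (SE, adjusted p = 3.4e-14). Dnaja1, a class A partner of Hspa8, was at 173 and 165 CPM in Wt lung, 231 and 215 in KO lung, 135 and 151 in Wt spleen, and 173 and 189 in KO spleen, and its log2 fold change in lung was 0.39 ± 0.0564 (SE, adjusted p = 3.32e-07). The other class A genes rose by 0.36 (Dnaja2), 0.66 (Dnaja3, in mitochondria) and 0.62 (Dnaja4) on the log2 scale. Other members of the HSP70 family rose by less, Hspa4 (an HSP110) by 0.21 and Hspa13 (a microsomal form) by 0.28. The latter was not called without lung Wt replicate 1 or lung KO replicate 2 (adjusted p = 0.412 and 0.125).

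Stip1 (HOP), which joins HSP70 to HSP90, was at 219 and 223 CPM in Wt lung, 281 and 274 in KO lung, 216 and 213 in Wt spleen, and 192 and 194 in KO spleen. The KO effect in lung, as log2, was 0.33 ± 0.0469 (SE, adjusted p = 2.03e-07). Ahsa1, the activator of the HSP90 ATPase, was at 149 and 159.5 CPM in Wt lung, 177 and 176 in KO lung, 159 and 153 in Wt spleen, and 196 and 181 in KO spleen. The lung log2 fold change was 0.20 ± 0.0558 (SE, adjusted p = 0.00207), and the call was lost without lung Wt replicate 1 (adjusted p = 0.139). For both co-chaperones the lung KO libraries were above the lung Wt libraries without overlap. The calls of Hsp90aa1, Ahsa1 and Hspa4 in lung did not hold in DESeq2 (adjusted p = 0.0615, 0.0549 and 0.0664).

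The HSP90 genes did not move as 1 family in lung. Hsp90ab1, the constitutive form, was at 1453 and 1475 CPM in Wt lung, 1104 and 1166 in KO lung, 978 and 955 in Wt spleen, and 1190.4 and 1165 in KO spleen. Its lung Wt libraries were the highest of all 8, and the log2 fold change in lung was -0.36 ± 0.0362 (SE, adjusted p = 9.3e-11). The inducible Hsp90aa1 was at 170.1 and 169.6 CPM in Wt lung, 194 and 193 in KO lung, 129.6 and 129 in Wt spleen, and 160.3 and 175 in KO spleen. Its log2 fold change in lung was 0.19 ± 0.053 (SE, adjusted p = 0.00292), and 58.5% of its windows are shared, mostly with the pseudogene Gm12346. Hsp90b1 was at 1367 and 1387 CPM in Wt lung, 1279 and 1256 in KO lung, 1042 and 1103 in Wt spleen, and 1201 and 1195 in KO spleen. In lung the log2 fold change was -0.12 ± 0.0359 (SE, adjusted p = 0.00512), a call that was lost with the GC offset (-0.05, adjusted p = 0.261) and without lung KO replicate 2 (adjusted p = 0.0672). Hspa14, the ribosome-associated HSP70, was the 1 member of its family that was lower in lung KO, at 281 and 301 CPM in Wt lung, 236 and 232 in KO lung, 217 and 219 in Wt spleen, and 248 and 261 in KO spleen. The KO effect in lung, as log2, was -0.31 ± 0.0481 (SE, adjusted p = 1.15e-06).

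Of 9 listed ER members (Hspa5, Hspa13, Hsp90b1, Dnajb9, Dnajb11, Dnajc1, Dnajc3, Dnajc10 and Dnajc25), 4 were higher and 1 lower in lung KO, against 29.2% and 26.4% of all genes. The list left out Dnajb12, Dnajb14 and Dnajc16, which are also ER proteins, and with them 4 of 12 were higher and 2 lower. Dnajc14 and Dnajc18, also placed at the ER membrane, were in neither list and were not called in lung KO. Hspa5 was at 1956 and 1996 CPM in Wt lung, 2281 and 2200.0 in KO lung, 1773 and 1775 in Wt spleen, and 1630.0 and 1662 in KO spleen, highest in lung KO, and its log2 fold change in lung was 0.18 ± 0.0342 (SE, adjusted p = 2.52e-05). Dnajc1, an ER membrane J-domain protein, rose by 0.40 on the log2 scale. Dnajb11 (ERdj3), a soluble partner of Hspa5, was at 319 and 333 CPM in Wt lung, 334 and 335 in KO lung, 288 and 289 in Wt spleen, and 288 and 299 in KO spleen. Dnajc3 (P58IPK), which also works with Hspa5, was at 426 and 426 CPM in Wt lung, 433 and 418 in KO lung, 417 and 408 in Wt spleen, and 401 and 414 in KO spleen. Neither was called in lung or in spleen, with log2 fold changes in lung of 0.04 and -0.0022. In mitochondria, Hspe1 (HSP10) was at 39.1 and 34.4 CPM in Wt lung, 56.0 and 58.4 in KO lung, 35.4 and 32.9 in Wt spleen, and 47.9 and 41.7 in KO spleen. Hspd1 (HSP60) was at 175 and 177 CPM in Wt lung, 220.4 and 205 in KO lung, 169 and 182 in Wt spleen, and 205 and 203 in KO spleen. The log2 fold change in lung was 0.62 ± 0.0929 (SE, adjusted p = 6.69e-07) for Hspe1 and 0.27 ± 0.0531 (SE, adjusted p = 4.98e-05) for Hspd1, and in both genes each KO library was above each Wt library of its organ. Of the windows of Hspd1, 44.8% are shared, mostly with its pseudogene Hspd1-ps3. Hspa9 (mortalin), the HSP70 of the matrix, was at 96.4 and 99.03 CPM in Wt lung, 97.2 and 92.4 in KO lung, 82.0 and 77.6 in Wt spleen, and 72.3 and 81.3 in KO spleen, and it was not called in either organ.

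**Figure D3:**
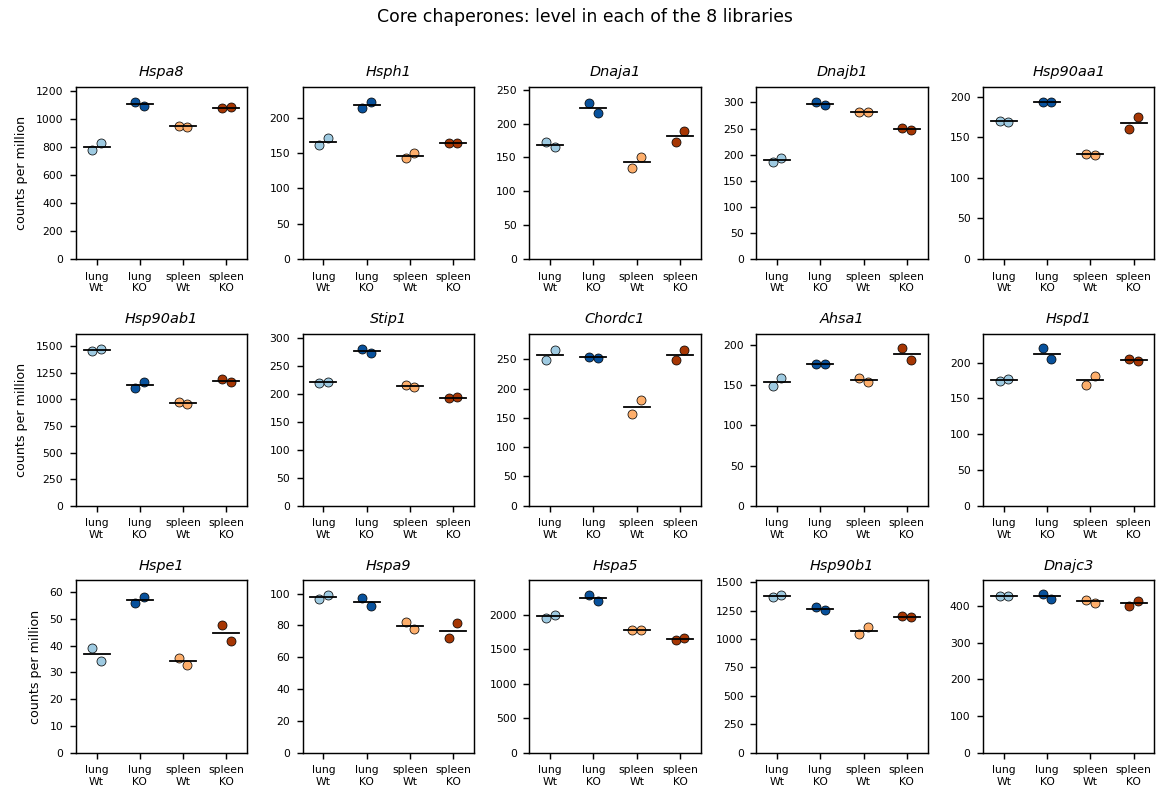
Level in CPM (vertical axes, from 0) of 15 abundant chaperones in each of the 8 libraries, with bars at the mean of 2 libraries. Hspa8, Hsph1, Dnaja1, Dnajb1, Stip1 and Hspe1 are higher in both lung KO libraries than in both lung Wt libraries, Hsp90ab1 is lower, and Hspa9 and Dnajc3 show little difference between genotypes.

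Further decreases in lung were those of rarer J-domain genes. Dnajc17, a nuclear J-domain protein of splicing, was at 20.6 and 20.7 CPM in Wt lung, 12.5 and 16.0 in KO lung, 20.4 and 16.7 in Wt spleen, and 13.0 and 16.5 in KO spleen. The lung log2 fold change was -0.50 ± 0.149 (SE, adjusted p = 0.00452), and the call was lost without lung KO replicate 1 (adjusted p = 0.0729). Dnajb4, a cytosolic class B member, was at 98.9 and 94.6 CPM in Wt lung, 73.3 and 74.1 in KO lung, 62.8 and 71.6 in Wt spleen, and 75.9 and 77.6 in KO spleen, with a log2 fold change in lung of -0.40 ± 0.0703 (SE, adjusted p = 8.84e-06). Of the 50-base windows of the pseudogene Dnajc19-ps, 64.6% are shared with Dnajc19. This pseudogene was at 13.3 and 14.5 CPM in Wt lung, 10.01 and 8.42 in KO lung, 11.47 and 11.1 in Wt spleen, and 14.99 and 12.3 in KO spleen. Its log2 fold change in lung was -0.59 ± 0.176 (SE, adjusted p = 0.00429), and the call was lost without lung KO replicate 2 (adjusted p = 0.104). For all 3 both lung Wt libraries were above both lung KO libraries.

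In spleen, KO libraries held more HSP90 and more of the mitochondrial chaperonin, and less of Hspa4 and of several J-domain genes. Here, 27 of the 67 members were higher (40.3%) and 20 lower (29.9%), against 28.2% and 28.9% of all genes, with a median log2 fold change of 0.00 for the members and for all genes. Hspa1a, with no read in spleen, is among the 67 at a fitted 0. At least 2-fold, 2 were higher (Dnajc28 and Hspb11) and 4 lower (Hspb6, Dnajb5, Dnajc16 and Dnajb13), against 4.02% and 6.57% of all genes. All 3 HSP90 genes and both chaperonin genes were higher, while in the HSP70 family 3 were higher and 3 lower, in class B 5 and 4, and in class C 8 and 8. Of the 27 and 20 calls, 16 and 12 were kept under all of the 10 other ways that still tested the gene. Fewer members were called lower without spleen KO replicate 2, the deepest library. Library totals moved the calls to 22 higher and 25 lower, and the HSP90 and chaperonin genes stayed higher. With the assumed coefficient of variation of 0.2, Dnajc28 and Hspb11 were higher and Dnajb5, Dnajc16 and Hspb6 lower, with 9.08% of all genes called. Dnajb5 and Hspb6 are in all these counts of lower members. They reached the low-count filter only through lung KO and spleen Wt libraries, where they were high, so their place there is a description.

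On the log2 scale, Hsp90ab1 rose by 0.28 ± 0.0368 (SE, adjusted p = 3.14e-08) in spleen. Hsp90aa1 rose by 0.41 ± 0.0528 (SE, adjusted p = 3.42e-08). Hsp90b1 rose by 0.16 ± 0.0363 (SE, adjusted p = 0.000373), and was not called with the GC offset (0.04, adjusted p = 0.352). For each of the 3 genes both KO libraries were above both Wt libraries in spleen. Chordc1 (CHP1), a co-chaperone of HSP90, was at 248 and 266 CPM in Wt lung, 254 and 252 in KO lung, 157 and 181 in Wt spleen, and 249.6 and 267 in KO spleen. Spleen Wt was the low group, and the log2 fold change was 0.61 ± 0.053 (SE, adjusted p = 3.76e-12) in spleen and -0.01 in lung. Chordc1 has the lowest GC content of the members (35.7%). With the GC offset its log2 fold changes were 0.35 in spleen and 0.37 in lung, so the lung value turned positive and passed the test (adjusted p = 4.91e-08).

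Of the cytosolic HSP70 set, Hspa8 rose by 0.19 ± 0.037 (SE, adjusted p = 3.1e-05) and Dnaja1 by 0.35 ± 0.0557 (SE, adjusted p = 1.48e-06) in spleen on the log2 scale. Hsph1 rose by 0.15, a call that was lost without spleen Wt replicate 1 or spleen KO replicate 2 (adjusted p = 0.0799 and 0.144). Of the chaperonin, Hspd1 rose by 0.20 ± 0.0503 (SE, adjusted p = 0.000826) and Hspe1 by 0.34 ± 0.0896 (SE, adjusted p = 0.00142), the latter being lost without spleen Wt replicate 2 (adjusted p = 0.0976). These genes rose in lung too. Dnajb9 (ERdj4), an ER J-domain protein raised by ER stress, was at 103 and 90.8 CPM in Wt lung, 115 and 105 in KO lung, 67.3 and 76.5 in Wt spleen, and 97.1 and 96.1 in KO spleen. The log2 fold change was 0.39 ± 0.0687 (SE, adjusted p = 6.93e-06) in spleen, and 0.15 in lung, where it was not called.

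Lower in spleen KO was Hspa4, at 147 and 145 CPM in Wt lung, 169 and 168 in KO lung, 151 and 153 in Wt spleen, and 89.9 and 107 in KO spleen. In spleen the log2 fold change was -0.56 ± 0.0577 (SE, adjusted p = 2.56e-10), the opposite of its direction in lung. Dnajc10 (ERdj5), a reductase of the ER, was at 70.7 and 73.4 CPM in Wt lung, 74.7 and 76.0 in KO lung, 121 and 114 in Wt spleen, and 77.2 and 77.3 in KO spleen. Spleen Wt was its high group, and the log2 fold change in spleen was -0.59 ± 0.059 (SE, adjusted p = 1.09e-10). Dnaja4 was at 46.0 and 45.0 CPM in Wt lung, 68.6 and 71.7 in KO lung, 76.3 and 71.1 in Wt spleen, and 48.2 and 50.2 in KO spleen. In spleen the log2 fold change was -0.55 ± 0.0698 (SE, adjusted p = 2.23e-08), and 51.9% of its windows are shared with Wdr61, which overlaps it on the opposite strand. Hspa5 fell by 0.11 on the log2 scale (adjusted p = 0.00862), a call that was lost without spleen KO replicate 1 (adjusted p = 0.0528). Dnajb1 fell by 0.18 (adjusted p = 0.000676) and Stip1 by 0.14 (adjusted p = 0.00809). Neither was called with the GC offset (-0.04 and -0.05, adjusted p = 0.452 and 0.41), and Stip1 was also lost without spleen KO replicate 2 (adjusted p = 0.0962).

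The rare members with large log2 fold changes in spleen lay at a few CPM. Of these, Hspb6 and Dnajb5 reached the low-count filter only through lung KO and spleen Wt libraries, where they were high. Their values are a description. Hspb6 (HSP20) was at 1.12 and 1.29 CPM in Wt lung, 2.65 and 1.90 in KO lung, 1.75 and 1.28 in Wt spleen, and 0.652 and 0.306 in KO spleen, with a log2 fold change of -2.01 ± 0.538 (SE, adjusted p = 0.00161). Dnajb5, a class B member, was at 1.61 and 0 CPM in Wt lung, 2.25 and 2.17 in KO lung, 3.74 and 3.97 in Wt spleen, and 1.63 and 1.03 in KO spleen, with -1.81 ± 0.361 (SE, adjusted p = 5.48e-05). Dnajc16, an ER J-domain protein, was at 3.72 and 5.17 CPM in Wt lung, 3.06 and 2.71 in KO lung, 8.98 and 3.38 in Wt spleen, and 1.96 and 1.95 in KO spleen, with -1.42 ± 0.316 (SE, adjusted p = 0.000213). All 3 calls depended on the deepest library. Hspb6 was lost without spleen KO replicate 2 (adjusted p = 0.419), Dnajb5 without spleen KO replicate 2 (adjusted p = 0.138) and Dnajc16 without spleen Wt replicate 1 or spleen KO replicate 2 (adjusted p = 0.0548 and 0.0574). Dnajb13, a J-domain protein of sperm and cilia, was at 4.47 and 3.36 CPM in Wt lung, 2.65 and 3.39 in KO lung, 2.99 and 3.62 in Wt spleen, and 2.61 and 1.38 in KO spleen. Its log2 fold change of -1.16 ± 0.322 (SE, adjusted p = 0.00235) was lost without spleen Wt replicate 2 or spleen KO replicate 2 (adjusted p = 0.136 and 0.622).

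Taking the members with a heat shock element before the start, 11 of the 13 were tested. In KO against Wt, 6 were higher and 2 lower in lung, and 6 were higher and 4 lower in spleen, beside 29.2% and 26.4% of all genes in lung and 28.2% and 28.9% in spleen. The 6 higher in lung include Hspa1a, which reached the low-count filter through lung KO alone. The 4 lower in spleen include Hspb6, which reached that filter only through lung KO and spleen Wt libraries, where it was high. Of the 3 members with the ER stress element, Hspa5 was higher and Hsp90b1 lower in lung, these directions were the opposite in spleen, and Dnajc3 was not called in either organ. The genes of the shared Hspd1 and Hspe1 element were higher in KO in both organs, whereas Dnajb6, the other member with 3 units, was at -0.26 in lung and 0.27 in spleen on the log2 scale and passed the test in both, the spleen call being lost without spleen KO replicate 2 (adjusted p = 0.0951).

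The KO effect differed between the organs for 43 of 67 members, tested as the difference of the 2 effects. In 23 members it was higher in lung and in 20 lower, against 32.5% and 29.0% of all genes, and with library totals these were 33 and 12. The 23 include Hspb6 and Dnajb5, which reached the low-count filter only through lung KO and spleen Wt libraries. Hspa1a is 1 of the 67, but with no read in spleen its difference could not be tested. Of the 28 members called in both organs, 9 were higher in lung and lower in spleen, 10 lower in lung and higher in spleen, 9 higher in both and 0 lower in both. Opposite directions made up 67.9% of these members, against 77.9% of the 4367 genes called in both organs. With the GC offset, 13 of 25 members called in both organs (52.0%) were opposite, against 74.4% of all such genes. The 9 members higher in both organs were Hspa8, Hsph1, Hsp90aa1, Hspd1, Hspe1, Dnaja1, Dnaja2, Ahsa1 and Bag3. Pearson's r between the lung and the spleen log2 fold changes across the 67 members was -0.29 (-0.22 with the GC offset), and over all genes tested it was -0.09 (-0.06). Spearman's rho was -0.29 for the members and -0.28 for all genes. In the members' values without the offset, Hspa1a, with no read in spleen, stood at a fitted 0 there. The members are not independent replicates, and they share libraries, depth and the GC trend, so this is a description.

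Dnajc28, a mitochondrial J-domain gene, had the largest difference. It was at 10.8 and 11.4 CPM in Wt lung, 1.84 and 1.49 in KO lung, 3.99 and 2.22 in Wt spleen, and 11.4 and 7.76 in KO spleen. Lung Wt and spleen KO were high, lung KO and spleen Wt low, and no library of a high group overlapped one of a low group. The log2 fold change was -2.74 ± 0.299 (SE, adjusted p = 7.82e-10) in lung and 1.56 ± 0.25 (SE, adjusted p = 1.68e-06) in spleen. The difference was -4.31 ± 0.39 (SE, adjusted p = 4.32e-12), and it passed the test without each of the libraries and with a coefficient of variation of 0.2 (adjusted p = 2.76e-11). The GC offset left the difference at -4.26. Hspb11 (IFT25, a part of the intraflagellar transport complex) was also high in lung Wt and spleen KO, at 5.96 and 4.396 CPM in Wt lung, 3.88 and 3.26 in KO lung, 2.24 and 2.80 in Wt spleen, and 9.78 and 5.73 in KO spleen. Its difference was -1.89 ± 0.408 (SE, adjusted p = 0.000128). Dnajb7 was at 4.96 and 4.396 CPM in Wt lung, 2.04 and 2.58 in KO lung, 1.99 and 2.80 in Wt spleen, and 3.91 and 4.17 in KO spleen, with a difference of -1.71 ± 0.418 (SE, adjusted p = 0.000567). The effects within an organ were less certain than the difference. Hspb11 was not called in lung (-0.63, adjusted p = 0.0724), and Dnajb7 lost its call in lung without lung Wt replicate 1 (adjusted p = 0.11) and in spleen without spleen Wt replicate 1, spleen Wt replicate 2 or spleen KO replicate 2 (adjusted p = 0.134, 0.0696 and 0.363).

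**Figure D4:**
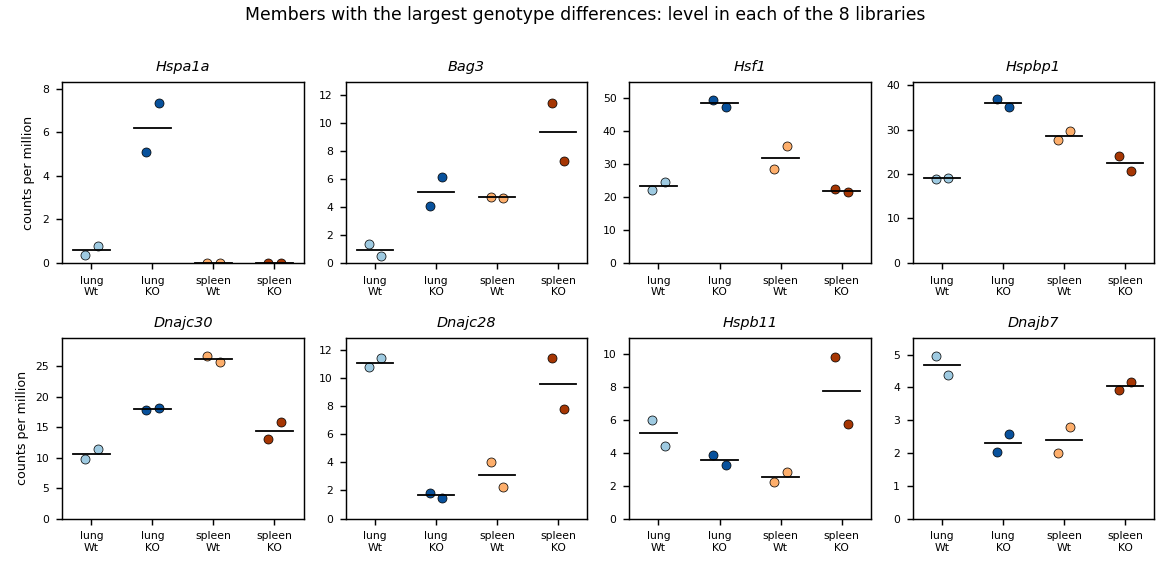
Level in CPM (vertical axes, from 0) of 8 members in each of the 8 libraries, with bars at the mean of 2. Hsf1, Hspbp1 and Dnajc30 are higher in KO than in Wt in lung and lower in spleen, Dnajc28 and Dnajb7 are the opposite, and Bag3 is higher in KO in both organs.

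The opposite order, high in lung KO and spleen Wt, was that of Hsf1, with a difference of 1.68 ± 0.15 (SE, adjusted p = 3.07e-12). Hspbp1 had a difference of 1.36 ± 0.155 (SE, adjusted p = 1.22e-09). Dnajc30, a J-domain protein of mitochondria, was at 9.80 and 11.4 CPM in Wt lung, 17.8 and 18.2 in KO lung, 26.7 and 25.7 in Wt spleen, and 13.0 and 15.9 in KO spleen. Its spleen Wt libraries were the highest, the log2 fold change in lung was 0.80 ± 0.157 (SE, adjusted p = 4.33e-05), and the difference was 1.55 ± 0.193 (SE, adjusted p = 8.26e-09). Nearly all of its shared windows (24.3% of the total) were shared with its neighbour Bud23. In spleen, Hsf1 fell by 0.62 ± 0.103 (SE), Dnajc30 by 0.75 ± 0.112 and Hspbp1 by 0.45 ± 0.102 on the log2 scale. With the GC offset the differences were 1.29 for Hsf1, 1.085 for Dnajc30 and 0.60 for Hspbp1, and each passed the test. The spleen effect of Hspbp1 alone no longer did with that offset (-0.11, adjusted p = 0.358), and without the offset it was lost without spleen KO replicate 2 (adjusted p = 0.251).

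For Bag3, which was higher in KO in both organs, the difference of 1.52 ± 0.49 (SE, adjusted p = 0.00726) was lost with the GC offset (0.95, adjusted p = 0.0933) and without lung KO replicate 2 or spleen KO replicate 2 (adjusted p = 0.0845 and 0.112). Its spleen effect of 0.74 was lost without spleen Wt replicate 2 (adjusted p = 0.0903). Hspb6 and Dnajb5 had differences of 2.92 ± 0.703 (SE, adjusted p = 0.000489) and 2.82 ± 0.624 (SE, adjusted p = 0.000175), the former lost without spleen KO replicate 2 (adjusted p = 0.123). The value of Dnajb5 ran from 2.25 to 8.997 on leaving out 1 library, the highest without lung Wt replicate 1, where the remaining lung Wt library had 0 reads. Since Hspb6 and Dnajb5 reached the low-count filter only through lung KO and spleen Wt, where they were high, their differences are a description. Dnajb14, an ER membrane J-domain protein, was at 21.96 and 25.3 CPM in Wt lung, 13.9 and 20.4 in KO lung, 17.2 and 16.2 in Wt spleen, and 19.2 and 21.6 in KO spleen. Its difference of -0.74 ± 0.192 (SE, adjusted p = 0.00101) was lost without spleen KO replicate 2 (adjusted p = 0.0516). All 3 HSP90 genes had a lower KO effect in lung than in spleen, with differences on the log2 scale of -0.65 for Hsp90ab1, -0.27 for Hsp90b1 and -0.22 for Hsp90aa1. With the GC offset, Hsp90ab1 of these kept its call (-0.88), while Hsp90b1 and Hsp90aa1 did not (-0.09 and -0.10, adjusted p = 0.132 and 0.256), and Hsp90aa1 was also lost without spleen Wt replicate 2 or spleen KO replicate 2 (adjusted p = 0.0509 and 0.279). The members called higher in lung KO averaged 48.5% GC and those called lower 45.5%, and in spleen KO these means were 45.7% and 51.0%. Over all genes tested the same means were 51.0% and 46.3% in lung, and 46.7% and 51.0% in spleen.

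**Figure D5:**
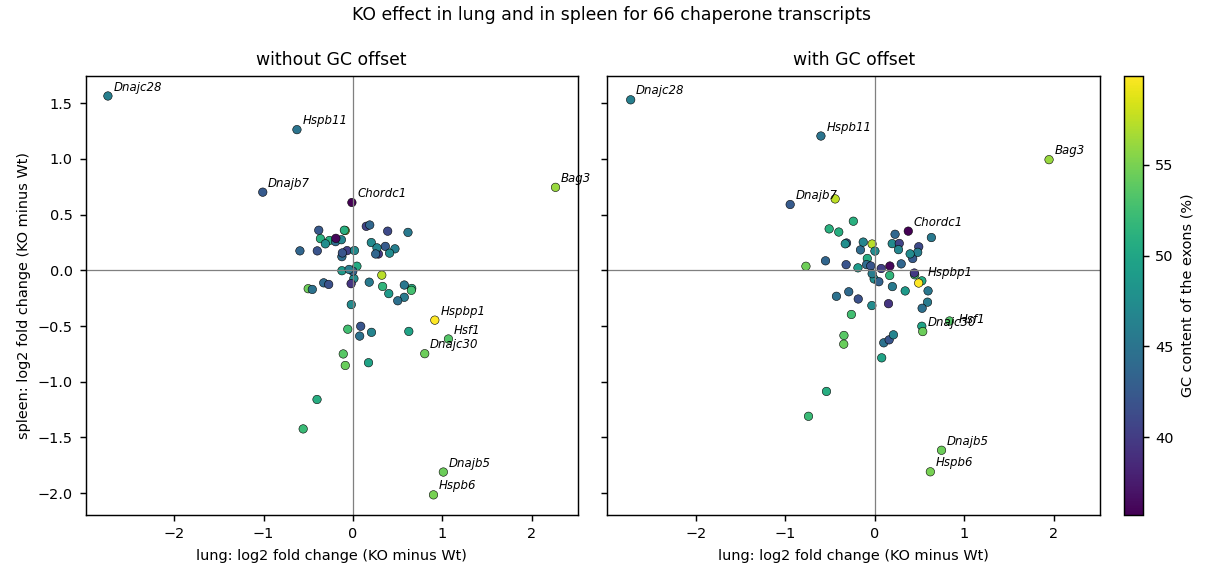
Log2 fold change of KO against Wt in lung (horizontal) and in spleen (vertical) for 66 members, all those tested but Hspa1a, without (left) and with (right) the GC offset, coloured by the GC content of the exons. Dnajc28 lies at -2.74 and 1.56 on the left and stays far from the other members on the right, while Hspbp1 moves toward the zero line of spleen.

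Immediate early genes, listed as a sign of sample handling and also raised quickly by lymphocytes on activation, were higher in lung KO and lower in spleen KO. Among the 28 chaperone members called in both organs, 9 had the same directions and 10 the opposite ones. The former were Hsf1, Dnajb1, Stip1, Hspbp1, Hspa4, Hspa5, Dnaja4, Dnajc1 and Dnajc30. Another 9, with Bag3, Hsph1 and Hspa8 among them, were higher in KO in both organs. Of 12 immediate early genes tested, 9 were higher and 0 lower in lung KO (29.2% and 26.4% of all genes). In spleen KO, 0 of these genes were higher and 10 lower (28.2% and 28.9% of all genes). The median log2 fold changes of these genes were 1.04 in lung and -1.16 in spleen. Their summed level was 1404 and 1462 CPM in Wt lung, 2429 and 2423 in KO lung, 1109 and 1063 in Wt spleen, and 762 and 772 in KO spleen. Whether handling or activation moved them was not tested, nor was their part in the chaperone values.

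Between organs, 26 of 67 members were higher and 20 lower in lung than in spleen of Wt mice, against 27.7% and 29.3% of all genes, and library totals moved these counts to 16 and 22. In KO mice 30 were higher and 15 lower, against 33.9% and 31.7%. Hspa1a, which reached the low-count filter through lung KO alone, is among the higher members in both genotypes. Dnajb5 and Hspb6 reached it only through lung KO and spleen Wt libraries. Dnajb5 is among the lower members in Wt and the higher in KO, and Hspb6 among the higher in KO. The median log2 difference of lung minus spleen was 0.12 in Wt and 0.08 in KO, with -0.01 and 0.02 for all genes. All 3 HSP90 genes were higher in lung of Wt mice, led by Hsp90ab1 at 0.60 ± 0.0367 (SE, adjusted p = 1.26e-16). In KO mice Hsp90ab1 was at -0.05 ± 0.0363 (SE, adjusted p = 0.239) and did not pass the test. Hspa5 was higher in lung in both genotypes, by 0.16 in Wt and 0.44 in KO, as was Hspa9, by 0.30 and 0.25. With library totals the Wt value of Hspa5 was 0.05 (adjusted p = 0.227). Of the 9 listed ER members 5 were higher and 2 lower in lung of Wt mice, and 7 were higher and 0 lower in lung of KO mice. With Dnajb12, Dnajb14 and Dnajc16 these counts were 7 and 2, and 8 and 0, of 12. Neither list held Dnajc14 and Dnajc18, also placed at the ER membrane. Both were called lower in lung, at -0.22 and -0.59 in Wt and at -0.13 and -0.30 in KO. The counts therefore depend on which genes are listed.

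Beside Hspa1a, the largest organ differences in Wt mice, as log2 of lung against spleen, were those of Dnajc28 (1.97), Dnajb12 (1.05), Hspb11 (1.05) and Dnajb7 (0.91) toward lung. Toward spleen they were those of Bag3 (-2.09), Dnajb5 (-1.83), Dnajc30 (-1.33), Hspbap1 (-0.93) and Dnajc10 (-0.70). Dnajb5 had 13 and 0 reads in the lung Wt libraries. It reached the low-count filter only through lung KO and spleen Wt, where it was high, so its value is a description. The call of Hspb11 was lost without lung Wt replicate 1 (adjusted p = 0.173) and that of Dnajb7 without lung Wt replicate 1 or spleen Wt replicate 1 (adjusted p = 0.144 and 0.0555). In KO mice they were Hspb6 (2.63), Dnajb12 (1.82), Dnajc27 (1.36) and Hsf1 (1.16) toward lung, of which Hspb6 was lost without spleen KO replicate 2 (adjusted p = 0.123). The value of Hspb6 is a description too, since it reached the low-count filter only through lung KO and spleen Wt libraries, where it was high. Toward spleen the largest in KO mice were Dnajc28 (-2.33), Hspb11 (-0.84), Dnajb7 (-0.80), Dnajc15 (-0.68) and Bag3 (-0.57). Of these, Hspb11 was lost without lung KO replicate 2 (adjusted p = 0.0917), Dnajb7 without lung KO replicate 1 or spleen KO replicate 2 (adjusted p = 0.0924 and 0.264) and Bag3 without lung KO replicate 1 or spleen KO replicate 1 (adjusted p = 0.221 and 0.0662).

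Dnajb12, an ER membrane J-domain protein, was at 6.08 and 8.53 CPM in Wt lung, 6.33 and 6.65 in KO lung, 2.74 and 3.62 in Wt spleen, and 0.978 and 1.95 in KO spleen. It was higher in lung in both genotypes, and the organs did not overlap. Dnajc15, of the inner mitochondrial membrane, was at 200.4 and 199 CPM in Wt lung, 166 and 181 in KO lung, 231 and 235 in Wt spleen, and 285 and 277 in KO spleen. The log2 fold change was -0.19 in lung, lost without lung KO replicate 1 (adjusted p = 0.0966), and 0.26 in spleen. Hspbap1, a protein named for binding HSP27, was at 7.20 and 5.69 CPM in Wt lung, 10.2 and 8.96 in KO lung, 10.7 and 13.8 in Wt spleen, and 10.4 and 10.6 in KO spleen, and its lung effect of 0.50 was lost without any 1 of the lung libraries. Dnajc27, a member that carries a Rab-like GTPase domain, was at 5.09 and 4.396 CPM in Wt lung, 6.13 and 5.02 in KO lung, 2.74 and 4.32 in Wt spleen, and 0.652 and 2.33 in KO spleen. Lung Wt and KO overlapped for Dnajc27, and its spleen effect of -0.83 was lost without spleen Wt replicate 2 (adjusted p = 0.611).

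Genes outside the named families that work with these chaperones also moved in both directions. Their counts stand beside 29.2% higher and 26.4% lower over all genes in lung, and 28.2% and 28.9% in spleen. Of the 8 subunits of the cytosolic chaperonin TRiC, which folds actin and tubulin, 5 were higher and 2 lower in lung KO, and 4 were higher and 0 lower in spleen KO. Among 18 co-chaperones of HSP90 and HSP70, 6 were higher and 8 lower in lung, and 5 higher and 7 lower in spleen. Fkbp5, a glucocorticoid-induced immunophilin of the steroid receptor complex, was at 116 and 139 CPM in Wt lung, 188 and 178 in KO lung, 193 and 203 in Wt spleen, and 63.2 and 66.6 in KO spleen. Its log2 fold change was 0.56 ± 0.0631 (SE, adjusted p = 1.99e-09) in lung and -1.60 ± 0.0622 (SE, adjusted p = 5.99e-22) in spleen, where the genotypes were far apart. Its relative Fkbp4 was at 0.71 and -0.48 in lung and spleen, and the myosin chaperone Unc45a at 1.17 and -0.94. Sugt1 (-0.45 and 0.54) and Ptges3, or p23 (-0.35 and 0.41), were lower in lung KO and higher in spleen KO. Of 7 mitochondrial partners, such as Trap1 and the proteases Lonp1 and Clpp, 1 was higher and 3 lower in lung, and 1 higher and 2 lower in spleen. Of 14 ER folding genes, 3 were higher and 3 lower in lung, and 4 higher and 1 lower in spleen. Among the latter, Manf was lower in lung KO and higher in spleen KO (-0.27 and 0.32), Xbp1, a transcription factor of the unfolded protein response, was higher in lung KO (0.26), and Ddit3, Herpud1, Creld2 and Sdf2l1 did not pass the test in either organ.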

How the data were processed

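RNA from sorted NK cells was sequenced, and the authors aligned reads of 50 bases with HISAT2 2.1.0 to the mm10 (GRCm38) genome and counted them per gene with HTSeq (0.11.1 per the labels, with an earlier release named in the study's methods). The deposited values are raw counts per gene symbol, 1 table per library. The strand setting of the counting is not given in the sources used here, and 14 members share exon bases with a protein-coding gene on the opposite strand. Reads in no feature (52.7% to 55.0% of a library) were left out of library sizes.

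Counts were fitted with edgeR 4.0.16 (R 4.3.3) by its quasi-likelihood test, with TMM scaling, filterByExpr and 1 mean for each of 4 groups over all 8 libraries. Adjusted p-values are Benjamini-Hochberg over all 12595 genes, at 0.05, and fold changes are KO over Wt or lung over spleen. The script was checked on simulated counts. With 2 libraries a group, an exact permutation test of 1 gene cannot go below 0.333. GC content, lengths and overlaps came from GENCODE M21, in which 46394 of 48321 symbols matched. Alternatives were RLE, upper quartile and library totals in place of TMM, no low-count filter, a minimum of 10 counts per library, DESeq2 1.42.0, edgeR's likelihood ratio test, an assumed coefficient of variation of 0.2, a replicate block, a GC offset (natural spline), fits of only the 4 libraries compared, and leaving out each library.

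The members, the lists and the rule for naming genes were chosen with earlier results of these data known. Named with values in every library were a core of heat-inducible, cytosolic, ER and mitochondrial members, regulators and co-chaperones, and per comparison the 5 largest called log2 fold changes in each direction whose groups did not overlap. Hspa4, Hspa14, Dnaja2, Dnaja3, Dnaja4, Dnajb6, Dnajc1, Hspa13 and the partner genes were added after their values were seen.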

Additional observations from a re-analysis of the deposited data

Results flagged for a closer look

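The effect of the enhancer deletion differed between lung and spleen for 43 of the 67 tested members, by edgeR's test of the difference itself (adjusted p under 0.05). They are listed here because the same contrast of KO against Wt gave unequal effects in the 2 organs. Of the tested members 34.3% had a higher and 29.9% a lower effect in lung, close to the 32.5% and 29.0% of all genes. Hspa1a is 1 of the 67, but with no read in spleen its difference could not be tested.

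Among the named members, the KO effect was higher in lung than in spleen, as a difference of log2 fold changes, by 2.92 (Hspb6), 2.82 (Dnajb5), 1.68 (Hsf1), 1.55 (Dnajc30), 1.52 (Bag3), 1.36 (Hspbp1), 1.003 (Dnajc27), 0.83 (Dnajb1), 0.77 (Hspbap1), 0.66 (Dnajc10), 0.48 (Stip1), 0.29 (Hspa5), 0.28 (Hspa8) and 0.26 (Hsph1). It was lower in lung for the others, with differences of -4.31 (Dnajc28), -1.89 (Hspb11), -1.71 (Dnajb7), -0.77 (Dnajc19-ps), -0.74 (Dnajb14), -0.65 (Hsp90ab1), -0.62 (Chordc1), -0.57 (Dnajb4), -0.45 (Dnajc15), -0.27 (Hsp90b1), -0.25 (Dnajb9) and -0.22 (Hsp90aa1). Those of Chordc1, Dnajb9, Hsp90aa1, Hsp90b1, Bag3 and Dnajc27 did not pass the test with the GC offset. Leaving out 1 library ended the call of Dnajc27 in 5 of 8 cases (0.53 to 2.67), of Dnajb9 in 4 (-0.37 to -0.14), of Bag3 (0.98 to 2.55), Hspbap1 (0.53 to 0.99) and Hsp90aa1 (-0.25 to -0.13) in 2 each, and of Hspb6 (2.004 to 3.195), Dnajb14 (-1.09 to -0.53) and Hsph1 (0.19 to 0.29) in 1 each, and it took Dnajb5 to 8.997 without lung Wt replicate 1. Depth and the trend with GC content differed between the libraries, and their part in these differences was not tested beyond that offset. The differences of Hspb6 and Dnajb5 are a description, since both reached the low-count filter only through groups where they were high.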

How the results depend on the processing

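Counts of members called, given as higher then lower, depended on the assumed spread. With a coefficient of variation of 0.2 they were 4 and 1 for the KO effect in lung, 2 and 3 for that in spleen, 6 and 3 for the difference of the KO effect, 3 and 3 for lung against spleen in Wt and 6 and 1 in KO, and the lower 2-fold count in lung was 1. The 3 lower in spleen include Dnajb5 and Hspb6, which reached the low-count filter only through lung KO and spleen Wt libraries. DESeq2 gave 8 lower in lung (1 at least 2-fold), 13 lower in spleen (2 at least 2-fold), 15 and 13 for the difference and 7 lower for lung against spleen in KO. Library totals gave 8 lower in lung (1 at least 2-fold), 12 lower for the difference and 16 higher for lung against spleen in Wt. With at least 10 counts in every library, which removes rare members from the test, the 2-fold counts were 1 and 0 in lung and 0 and 0 in spleen. The GC offset left 1 member at least 2-fold lower in lung, and so did the GC offset with the replicate block.

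Leaving out 1 library at a time gave 1 to 3 members at least 2-fold lower in lung (lowest without lung Wt replicate 1), 11 to 20 lower in spleen (lowest without spleen KO replicate 2), 19 to 31 higher (lowest without spleen KO replicate 2) and 8 to 15 lower (lowest without lung KO replicate 2) for lung against spleen in KO. An arm left with 1 library was assumed to vary like the other groups.

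The replicate numbers do not state a pairing. Deviations from the group means of same-numbered libraries correlated at -0.0139 between lung Wt and KO and at 0.169 between spleen Wt and KO (5103 genes). With the replicate as a block, 25 members were higher and 14 lower in lung, and 27 and 20 in spleen.

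The GC offset turned 5 named values that passed the test with or without it, on the log2 scale. These were Chordc1 in lung (0.37, and 0.36 with the block), the differences of Dnajb9 (0.031 and 0.036), Dnajb11 (-0.19 and -0.19) and Chordc1 (0.022 and 0.019), and Chordc1 for lung against spleen in KO (0.11 and 0.13). The cause was not tested. Over 195 named values and all their alternatives, 3459 kept the call and, where called, the direction, 274 lost the call, 52 gained it and 10 turned. Values not called in either fit, such as the difference of Hsf2, could change sign without being counted as turned. Libraries of 3132963 to 8444054 reads beside 1 of 26482366 limit what can be said of members under a few CPM.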

Other observations

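Several abundant chaperones and partner genes, picked after their values were seen, were not described above. Dnajc8, a J-domain protein of the spliceosome, was at 497 and 488 CPM in Wt lung, 455 and 450.1 in KO lung, 477 and 447 in Wt spleen, and 503 and 498 in KO spleen. Its log2 fold change was -0.12 ± 0.0412 (SE, adjusted p = 0.0105) in lung and 0.12 ± 0.0403 (SE, adjusted p = 0.00937) in spleen, so lung KO and spleen Wt were its low groups. Dnajc9, a histone chaperone of dividing cells, was at 173 and 178 CPM in Wt lung, 180.1 and 175 in KO lung, 212 and 219.7 in Wt spleen, and 249 and 244 in KO spleen, with 0.02 ± 0.0524 (SE, adjusted p = 0.813) in lung and 0.18 ± 0.0462 (SE, adjusted p = 0.00125) in spleen. Dnajc7, an HSP70 and HSP90 adaptor, was at 211 and 214 CPM in Wt lung, 199 and 197 in KO lung, 175 and 188 in Wt spleen, and 234 and 236 in KO spleen, with -0.10 ± 0.0505 (SE, adjusted p = 0.104) in lung and 0.36 ± 0.0478 (SE, adjusted p = 5.37e-08) in spleen.

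In the ER, the lectin chaperone calnexin (Canx) was at 1758 and 1666 CPM in Wt lung, 1086 and 1094 in KO lung, 942 and 949.7 in Wt spleen, and 1214 and 1266 in KO spleen. The log2 fold change was -0.65 ± 0.0364 (SE, adjusted p = 1.93e-17) in lung and 0.39 ± 0.037 (SE, adjusted p = 2.22e-11) in spleen. The protein disulfide isomerase P4hb went the other way, at 252 and 267 CPM in Wt lung, 338 and 329 in KO lung, 295 and 309 in Wt spleen, and 223 and 234 in KO spleen, with 0.37 ± 0.0468 (SE, adjusted p = 2.24e-08) in lung and -0.39 ± 0.0456 (SE, adjusted p = 2.97e-09) in spleen. Calreticulin (Calr), the soluble relative of calnexin, was higher in KO in both organs, by 0.13 and 0.22 on the log2 scale. In mitochondria the disaggregase Clpb was lower in KO in both organs, at -0.67 and -0.59 on that scale.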
